A study of Mus musculus with 2 samples.

Results

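Immediate-early genes and heat shock genes were followed across the cell classes of the newborn (P0) mouse kidney with and without folliculin (Flcn). The 36 genes, 29 immediate-early and 7 heat shock, were taken by symbol from a list of known members and all were found among the 55488 gene rows of both count tables. They were read in 2 libraries, 1 per genotype. The Flcn KO library came from kidneys with Six2-driven Cre and both Flcn alleles floxed (Six2Cre; Flcn flox/flox). The Flcn WT library came from kidneys that also carried the Six2-driven Cre and had 1 floxed and 1 intact allele (Six2Cre; Flcn flox/+), so it is heterozygous in the cells in which Cre is active and not a Cre-free wild type. Six2 marks the nephron progenitors, so Cre is expected to act in progenitors, podocytes and nephron tubules, and not in the ureteric bud, stroma, vessels or blood cells. The tissue field of both libraries reads embryonic kidney, and how many animals went into a library is not given in the sources used here. With 1 library per genotype there is no replicate check, each 95% interval below covers counting error only, and genotype, animal and the handling of each kidney cannot be told apart.

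Immediate-early genes are switched on within minutes of a growth factor, stretch or stress signal, without the need for new protein. Serum response factor with its Elk partners, and CREB, sit on their promoters and are activated by MAP kinases. Their products include the AP-1 proteins of the Fos and Jun families, the EGR zinc fingers, and inhibitors that end the response, among them the phosphatases Dusp1 and Dusp6 and the mRNA decay factor Zfp36. Heat shock genes are driven by HSF1, which binds repeated heat shock elements when unfolded protein accumulates, and they encode the chaperones that refold or hold such protein. Immediate-early and heat shock genes are also known to be transcribed while tissue is dissociated into single cells, and both libraries were made from dissociated cells.

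The libraries held 5991 barcodes for KO and 5572 for WT, with 149679281 and 147390790 UMIs in all. A UMI stands for 1 captured transcript. After filters, 4837 KO cells and 4047 WT cells were kept, with a median of 18493 UMIs per KO cell and 20994 per WT cell. The libraries shared 5 deposited barcodes, of which 1 was kept in both. Cells were clustered without the 36 genes or their related lists and named by marker genes, so a class name means cells that resemble that type by markers. Of 12 named classes 11 were compared, since the intercalated class held 14 KO cells and 43 WT cells. Another 634 KO cells and 652 WT cells stayed unnamed. Flcn itself had 1436 UMIs in KO cells and 1579 in WT cells, a ratio of 0.897 (95% interval 0.835 to 0.964). By class the ratio was 0.615 (0.525 to 0.719) in the proximal tubule and 1.75 (1.34 to 2.28) in podocytes. The 3′ counts do not check the deletion, because a transcript that lacks floxed exons can still be counted.

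Levels are given in CPM: the UMIs of a gene in all cells of 1 class and 1 library, over the nuclear-encoded UMIs of the same cells. They are not divided by transcript length and so are compared between classes and libraries, never between genes. A ratio is the KO level over the WT level. A gene was counted as higher or lower when its ratio was at least 1.5 in either direction with at least 50 UMIs over both libraries, and each such count is set beside the share of all genes that passed the same rule in that class.

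The immediate-early genes were most abundant in cells outside the nephron. Summed over the 29 genes, immune cells had 20811 CPM in the KO library and 17451 in the WT library. Mural cells, which wrap vessels and include renin cells, had 17410.5 in KO and 14102 in WT. Stroma had 15353 in KO and 13301 in WT, and endothelium 14866.5 in KO and 12708 in WT. In each of these classes the summed level was higher in KO, with ratios of 1.19 (1.17 to 1.21) in immune cells, 1.23 (1.22 to 1.25) in mural cells, 1.15 (1.15 to 1.16) in stroma and 1.17 (1.16 to 1.18) in endothelium.

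The Six2-derived classes had lower levels and did not share 1 direction. Podocytes had 10036 CPM in KO and 10002 in WT (ratio 1.003, 95% interval 0.990 to 1.02), and nephron progenitors 8632 in KO and 8675 in WT (ratio 0.995, 0.987 to 1.004). Early nephron cells, those between progenitor and tubule, had 5233 in KO and 5770.1 in WT, the lowest ratio of the 11 classes at 0.907 (0.897 to 0.917). Proximal tubule cells had the lowest WT level of all, 4490.1, against 5721 in KO, and the highest ratio, 1.27 (1.26 to 1.29). The loop of Henle stood at 6426 in KO and 5775 in WT (ratio 1.11, 1.10 to 1.13), and the distal tubule at 7978 in KO and 8122 in WT (ratio 0.982, 0.965 to 0.999). The ureteric bud and collecting duct, which lies outside the Six2 lineage, had 11479.9 in KO and 11342 in WT (ratio 1.01, 1.001 to 1.02).

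**Figure D1:**
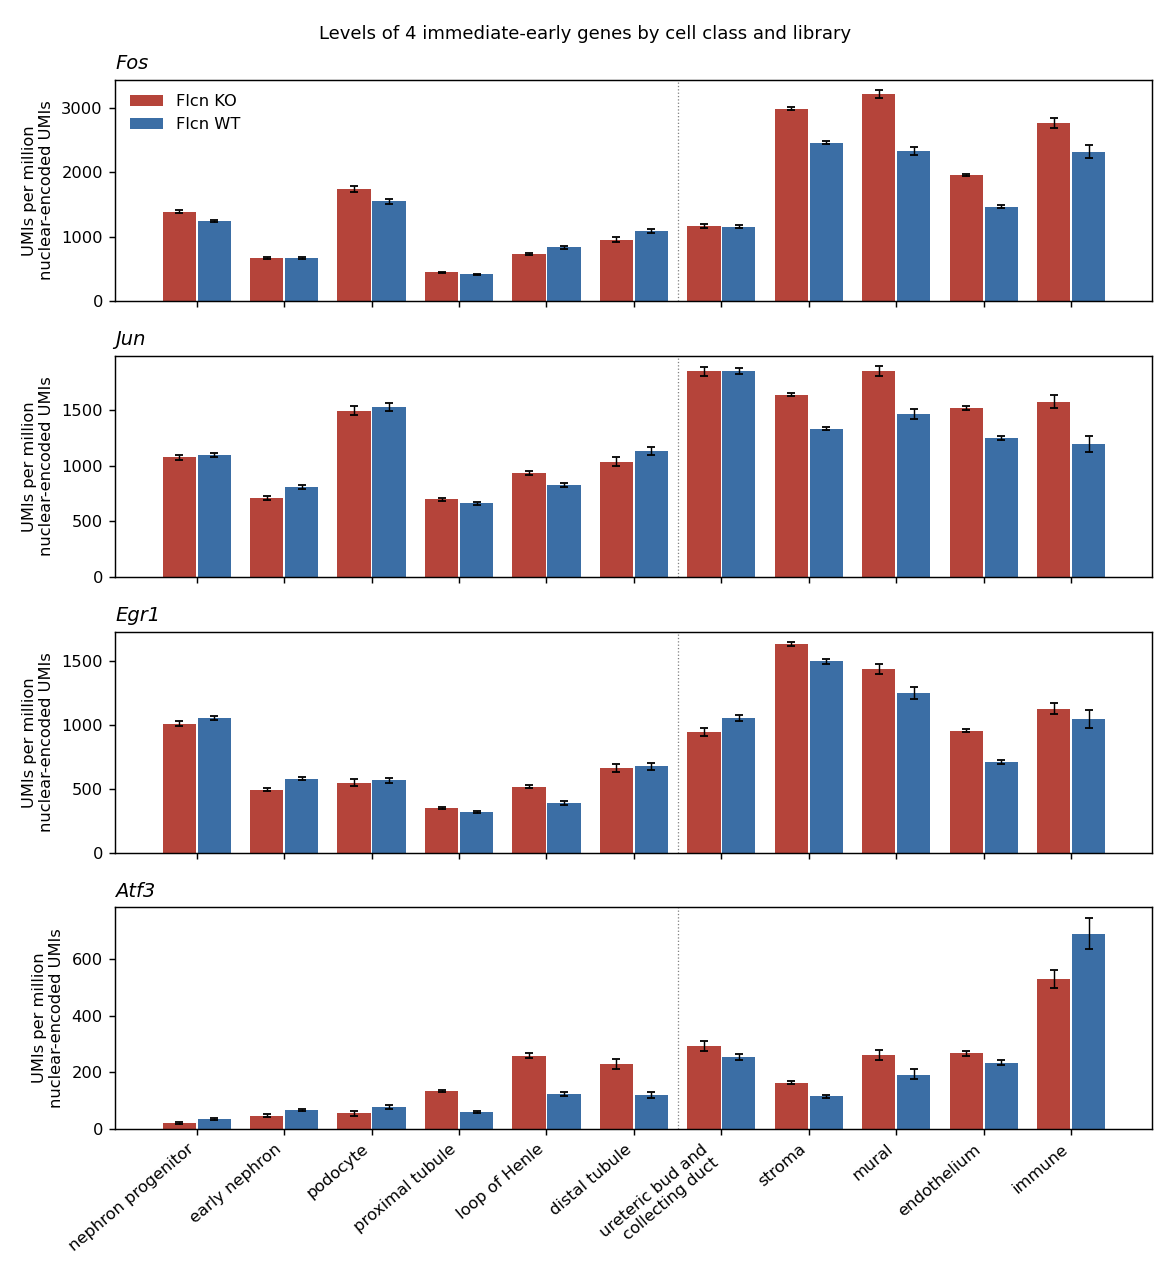
CPM of nuclear-encoded UMIs (y axis) of Fos, Jun, Egr1 and Atf3 in 11 cell classes, with KO bars left of WT bars and error bars giving 95% counting intervals. Classes left of the dotted line derive from Six2-expressing progenitors. Fos reached 3207 in KO mural cells against 2329 in WT mural cells, and Atf3 was higher in KO in the proximal tubule, loop of Henle and distal tubule but lower in KO in progenitors, early nephron cells, podocytes and immune cells.

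Fos, the AP-1 subunit most used as a marker of the response, was higher in KO outside the nephron and of either direction within it. Mural cells had 3207 CPM in KO and 2329 in WT, a ratio of 1.38 (1.33 to 1.42). Endothelium had 1953 in KO and 1467 in WT, a ratio of 1.33 (1.31 to 1.36). Stroma had 2984 in KO and 2453 in WT, and immune cells 2761 in KO and 2315 in WT, with ratios of 1.22 and 1.19. All 4 of these classes outside the nephron had higher Fos in KO. In the ureteric bud and collecting duct Fos stood at 1163 in KO and 1152 in WT, and the interval of the ratio held 1.

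Among Six2-derived classes Fos was higher in KO by a small margin in nephron progenitors (1386 in KO, 1238 in WT, ratio 1.12) and podocytes (1732 in KO, 1545 in WT, ratio 1.12). The proximal tubule had 448 in KO and 419.5 in WT (ratio 1.07), the lowest Fos of any class in either library. Early nephron cells had 662 in KO and 672 in WT, with an interval that held 1. Fos was lower in KO in the loop of Henle (737 in KO, 836 in WT, ratio 0.882, 0.854 to 0.9098) and the distal tubule (955 in KO, 1088 in WT, ratio 0.878, 0.836 to 0.922). No class moved Fos by 1.5-fold.

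The RefSeq promoter table (GRCm38.p6; 250 bases before to 50 after the start) held windows for 29 of the 36 genes. The Fos window, chr12:85473640-85473939 on the + strand, is shown because Fos is followed through every class. Its capitals mark TGACG, a core of the cAMP response element that CREB binds, and the matches begin 129 and 66 bases before the start.
Fos: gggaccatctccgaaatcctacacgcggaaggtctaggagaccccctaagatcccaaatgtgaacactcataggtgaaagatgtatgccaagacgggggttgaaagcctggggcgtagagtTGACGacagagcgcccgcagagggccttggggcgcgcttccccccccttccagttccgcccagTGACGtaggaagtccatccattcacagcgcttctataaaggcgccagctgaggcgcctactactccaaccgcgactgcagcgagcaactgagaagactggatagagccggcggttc
TGACG, searched on both strands, was in the windows of 13 of the 24 immediate-early genes that had one, or 54.2%, against 23.0% of 27025 genes in the table. A match describes the letters and not a bound site.

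Jun, the usual dimer partner of Fos, was also higher in KO in these 4 classes. It had 1848 CPM in KO and 1463 in WT mural cells, 1639 in KO and 1334 in WT stroma, 1516 in KO and 1249.8 in WT endothelium, and 1576 in KO and 1192 in WT immune cells, with ratios between 1.21 and 1.32. In the nephron Jun stood at 1075 in KO and 1098 in WT progenitors, 712 in KO and 809 in WT early nephron cells, and 1493 in KO and 1525 in WT podocytes. The early nephron value was lower in KO (ratio 0.879, 0.854 to 0.905). In the tubules it stood at 697 in KO and 662 in WT proximal cells, 935 in KO and 825 in WT loop cells, and 1037 in KO and 1131 in WT distal cells. The ureteric bud and collecting duct had 1846 in KO and 1852 in WT.

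Junb, a Jun relative that can oppose it, had 1369 in KO and 971 in WT mural cells (ratio 1.41, 1.34 to 1.48) and 316 in KO and 231 in WT proximal tubule cells (ratio 1.37, 1.32 to 1.42). Jund, a Jun relative that restrains growth, had ratios from 0.912 in podocytes to 1.32 in mural cells. Fosb had 653 in KO and 468 in WT endothelium (ratio 1.39, 1.35 to 1.44), and 258 in KO and 339 in WT loop cells (ratio 0.761, 0.723 to 0.801). Fosl2 was higher in KO distal cells, 94.1 against 62.7 in WT (ratio 1.501, 1.26 to 1.79). Fosl1 had fewer than 50 UMIs in 6 of the 11 classes. Its largest ratio was in the proximal tubule, from 98 UMIs in KO and 30 in WT (3.53, 2.33 to 5.51).

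Egr1, a zinc finger factor induced through serum response factor, was highest in stroma, with 1635 CPM in KO and 1497 in WT. Mural cells had 1439 in KO and 1249 in WT, immune cells 1129 in KO and 1047 in WT, and endothelium 957 in KO and 712 in WT. Endothelium gave the highest ratio, 1.34 (1.31 to 1.38). In progenitors Egr1 stood at 1011 in KO and 1054 in WT, in early nephron cells at 495 in KO and 579 in WT, and in podocytes at 551 in KO and 569 in WT. The loop of Henle had 519 in KO and 391 in WT (ratio 1.33, 1.27 to 1.38), while Fos was lower in KO in the same cells. The proximal tubule had 349 in KO and 321 in WT, the distal tubule 663 in KO and 677 in WT, and the ureteric bud and collecting duct 946 in KO and 1054 in WT. Egr2 and Egr3 were scarce, at most 90.02 CPM in any class.

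The spread between cells was wide in every class. When each cell was thinned to 3000 UMIs, the median stromal cell held 44 immediate-early UMIs in KO and 37 in WT, with 10th and 90th percentiles of 17 and 73 in KO and 14 and 66 in WT. Mural cells had a median of 52 in KO and 39 in WT, and immune cells 65 in KO and 54 in WT. The ranges of the 2 libraries overlapped in all 3 classes. Proximal tubule cells had a median of 14 in KO and 7 in WT, and 0% of KO cells against 2.80% of WT cells held no immediate-early UMI at this depth. Loop of Henle cells had a median of 16 in KO and 13 in WT, and their 10th percentiles were 10 in KO and 3 in WT. Progenitors had a median of 25 in both libraries, early nephron cells 13 in KO and 15 in WT, and podocytes 23 in KO and 27 in WT.

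**Figure D2:**
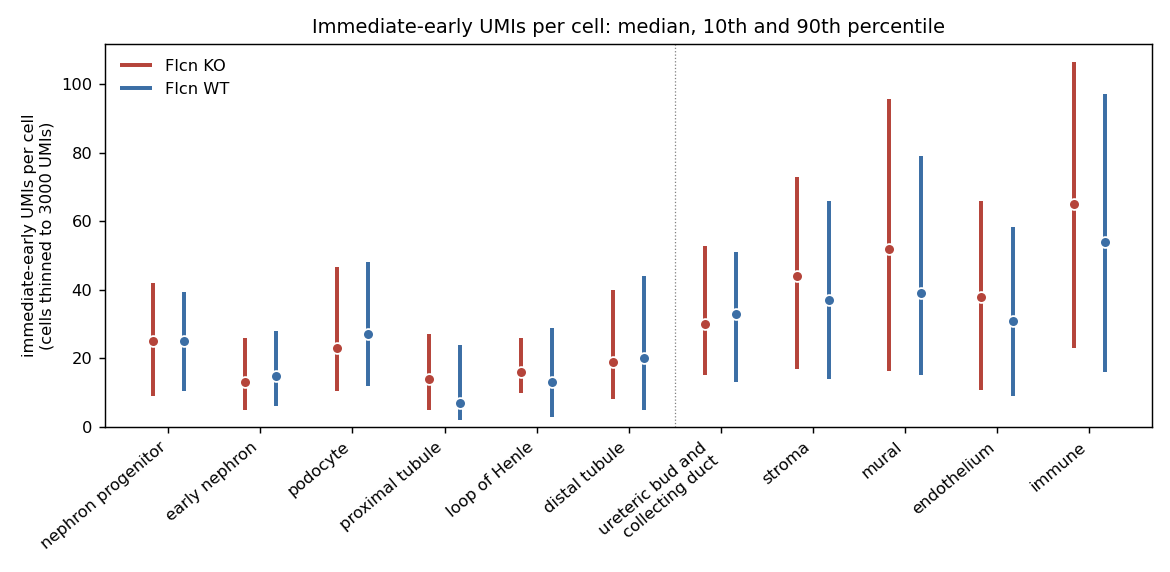
Immediate-early UMIs per cell after thinning every cell to 3000 UMIs (y axis) in 11 classes, with KO left of WT. Points are medians and bars run from the 10th to the 90th percentile of cells; the medians of 14 in KO and 7 in WT stand apart in the proximal tubule, while the bars of the 2 libraries overlap in every class.

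Fos, Egr1, Jun and Atf3 tended to be detected in the same cells. Among thinned stromal cells, Egr1 was seen in 95.7% of the KO cells with a Fos UMI and in 46.9% of those without, and in 94.4% and 50.7% of the WT cells. In proximal tubule cells the shares were 56.1% with and 39.1% without Fos in KO, and 59.1% with and 20.6% without in WT. Egr1 and Jun were each seen more often in cells with Fos in 22 of 22 sets of 1 class in 1 library, and Atf3 in 21 of 22. Hspa1a was seen more often in cells with Fos in 18 of 22 sets, and Hspa1b in cells with Hspa1a in 12 of 22. Pairs of genes outside the lists were not counted. These are descriptions of cells of 1 library, which share their handling.

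In stroma 22 of the 29 immediate-early genes had a higher level in KO, with a median log2 ratio of 0.23 against 0.00 over all genes with at least 10 UMIs. None was 1.5-fold higher or lower in stroma, where 4.86% of all genes were 1.5-fold higher and 3.46% lower. In mural cells 24 of the 28 with at least 10 UMIs were higher in KO (median 0.25, against -0.01 for all genes), 2 by 1.5-fold and none lower by as much, beside 5.69% and 5.06% of all genes. With doublet calls kept the mural median was 0.12. In endothelium 24 of 29 were higher (median 0.19, against -0.01), again none past 1.5-fold, beside 3.63% higher and 2.82% lower of all genes. In immune cells 20 of 29 were higher (median 0.21, against -0.02), 1 past 1.5-fold upward and 0 downward, beside 7.40% and 7.47%. The shift in these 4 classes was thus one of many small ratios. The median was 0.28 over all kept cells, where stroma made up 38.5% of KO cells and 26.1% of WT cells.

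**Figure D3:**
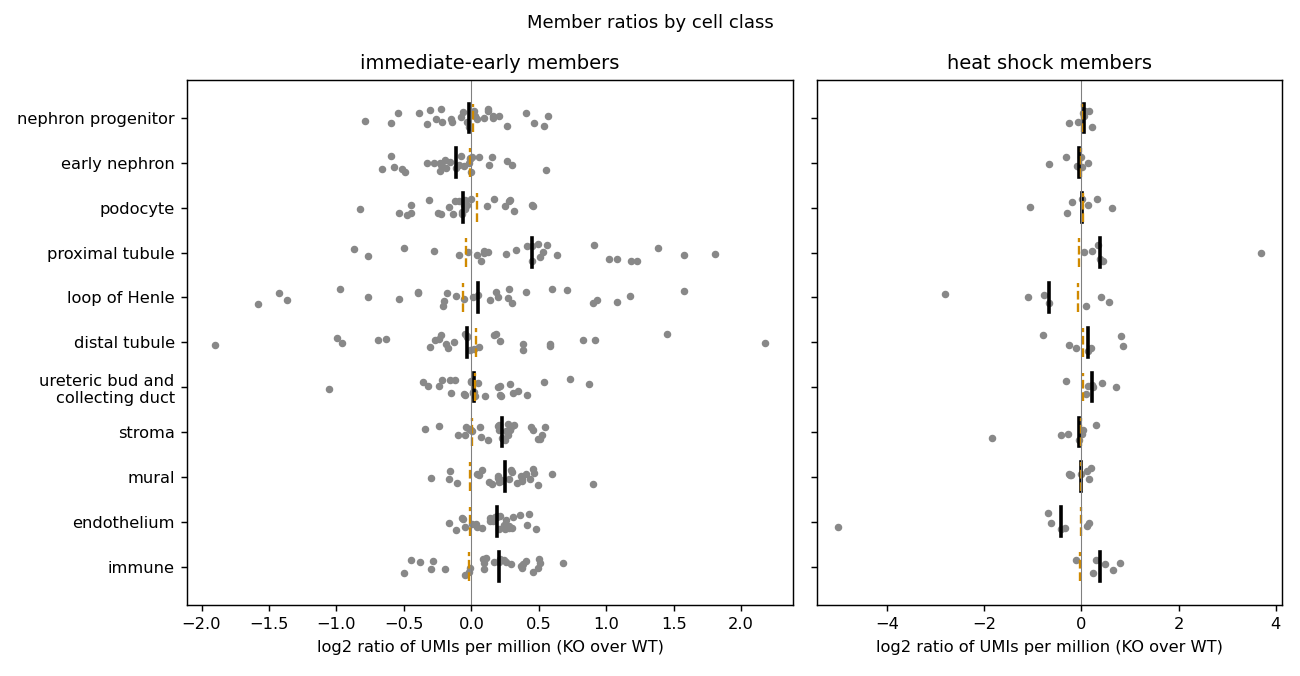
Log2 ratio of CPM, KO over WT (x axis), of each immediate-early gene (left) and heat shock gene (right) with at least 10 UMIs, by cell class. Black bars are the medians over the members and dashed orange bars the medians over all genes; the immediate-early medians lie at 0.23 in stroma, 0.25 in mural cells, 0.19 in endothelium and 0.45 in the proximal tubule, and at -0.11 in early nephron cells.

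Within stroma the direction was not uniform. Of 7 stromal clusters, 5 had a higher summed immediate-early level in KO, with ratios up to 1.22. The cluster led by Nts and Nrxn3 had 14566 CPM in KO and 16162 in WT (ratio 0.901, 0.886 to 0.917), and the small cluster led by Dlk1 and Postn 18731 in KO and 20258 in WT (ratio 0.925, 0.8995 to 0.950). Both immune clusters were higher in KO. The C1qb-led one had a ratio of 1.15 (1.12 to 1.17) and the S100a9-led one 1.37 (1.31 to 1.43).

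Gadd45b, a growth arrest and stress gene, had 331 CPM in KO and 177 in WT mural cells, a ratio of 1.87 (1.67 to 2.098), yet in stroma 77.8 in KO and 91.7 in WT, a ratio of 0.848 (0.796 to 0.904). The same WT mural cells held 253.8 CPM of proximal tubule markers, against 28.2 in KO mural cells, and the part this plays was not tested. Dusp6, the phosphatase that switches off ERK, was also past 1.5-fold in mural cells (75.5 in KO, 49.8 in WT) and stood at 117 in KO and 86.1 in WT stroma (ratio 1.36, 1.28 to 1.44). Socs3, the inhibitor of cytokine receptor signalling, had 403 in KO and 294 in WT stroma (ratio 1.37, 1.33 to 1.42) and 219 in KO and 136 in WT immune cells (ratio 1.61, 1.31 to 1.98). It was the 1 immediate-early gene past 1.5-fold in immune cells. In immune cells Dusp1, Btg2 and Cebpb had ratios of 1.42, 1.41 and 1.41. Klf4, a Krüppel-like factor, was higher in KO stroma (233, against 166 in WT), and Nr4a2, an orphan nuclear receptor, was lower there (62.5 in KO, 79.4 in WT, ratio 0.787, 0.735 to 0.844). Klf2, a flow-responsive factor of endothelium, stood at 1412 in KO endothelium and 1410.0 in WT endothelium, a ratio whose interval held 1.

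In nephron progenitors the immediate-early genes balanced out. The median log2 ratio was -0.02, against 0.01 for all genes, with 14 of 29 members higher in KO. No member was 1.5-fold higher and 2 were 1.5-fold lower, beside 4.27% of all genes higher and 4.28% lower. Atf3, a stress-induced repressor of the ATF family, was one of the 2, with 20.6 CPM in KO and 35.7 in WT (ratio 0.578, 0.49 to 0.679). Nr4a1 was the other, with 44.1 in KO and 66.9 in WT (ratio 0.6598, 0.589 to 0.738). Klf2 and Klf6 leaned the other way, with ratios of 1.48 (1.26 to 1.73) and 1.45 (1.28 to 1.64).

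In early nephron cells 7 of 29 immediate-early genes were higher in KO and the median log2 ratio was -0.11, against -0.01 for all genes. None was 1.5-fold higher and 2 were 1.5-fold lower, beside 3.76% and 4.77% of all genes. Gadd45b had 37.3 in KO and 58.9 in WT (ratio 0.633, 0.5598 to 0.714). Nr4a1 had 27.4 in KO and 41.3 in WT (ratio 0.663, 0.574 to 0.764). Atf3 had 46.9 in KO and 67.02 in WT (ratio 0.699, 0.626 to 0.78). Dusp6 went the other way, with 69.1 in KO and 47.02 in WT (ratio 1.47, 1.32 to 1.63). Klf6 (1.23, 1.15 to 1.32) and Zfp36 (1.11, 1.02 to 1.22) also had intervals above 1. At a coarser clustering the early nephron median turned to 0.11. Proximal tubule markers summed to 641 CPM in KO and 307 in WT early nephron cells, and their part in these ratios was not tested.

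In podocytes 8 of the 28 members with at least 10 UMIs were higher in KO and the median was -0.06, against 0.04 for all genes. None was 1.5-fold higher and 1 was 1.5-fold lower, beside 8.78% and 6.19% of all genes. That 1 was Egr3, from 17 UMIs in KO and 51 in WT. Atf3 stood at 54.7 in KO and 76.1 in WT (ratio 0.718, 0.599 to 0.858), and Ier3, a survival and stress gene, at 103 in KO and 149 in WT (ratio 0.689, 0.605 to 0.784). The 5 highest cells held 71.3% of the Atf3 UMIs in KO podocytes and 31.4% in WT, and the Atf3 ratio without them was not computed. For Ier3 they held 40.3% in KO and 31.0% in WT, and its ratio without them was 0.602. Fosb and Cebpb were higher in KO, with ratios of 1.37 (1.29 to 1.46) and 1.36 (1.15 to 1.61).

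The proximal tubule had the broadest difference. Of 29 immediate-early genes 23 were higher in KO and the median log2 ratio was 0.45, against -0.04 for all genes. Past 1.5-fold were 9 upward and 2 downward, beside 9.14% and 11.7% of all genes. The 9 were Fosl1, Atf3, Ier5, Btg2, Klf2, Klf6, Gadd45b, Myc and Cebpb, and the 2 were Egr2 and Nr4a2, which had at most 6.81 CPM. The pooled ratios of Fos, Jun, Jund and Egr1 lay between 1.05 and 1.09 in a class whose 2 clusters the libraries fill unequally. In the Spp2-led cluster, with 274 KO and 255 WT cells, Fos had a ratio of 1.57, Jun 1.27, Jund 1.35 and Egr1 1.45. In the Serpina6-led cluster, with 95 KO and 176 WT cells, Fos had 1.16, Jun 1.19, Jund 1.06 and Egr1 1.23.

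Klf6, a Krüppel-like factor known to be induced in injured epithelium, had 526 CPM in KO and 202 in WT (ratio 2.603, 2.51 to 2.698). Klf2 had 72.3 in KO and 24.2 in WT (ratio 2.99, 2.699 to 3.31). Cebpb, a C/EBP factor of the inflammatory response, had 126 in KO and 53.6 in WT (ratio 2.34, 2.18 to 2.52). These 3 were all more than 2-fold higher in KO. Atf3 had 134 in KO and 59.1 in WT (ratio 2.27, 2.12 to 2.43), and Gadd45b 65.03 in KO and 30.7 in WT (ratio 2.12, 1.92 to 2.33). Myc, a growth-promoting factor, had 69.8 in KO and 37.1 in WT (ratio 1.88, 1.72 to 2.06). Atf3 differed mainly in the Spp2-led cluster, with 139 in KO and 21.0 in WT (ratio 6.63, 5.80 to 7.59), against 121 in KO and 107 in WT (ratio 1.13, 1.02 to 1.25) in the Serpina6-led one. An Atf3 UMI was seen in 24.6% of thinned KO cells (20.3% to 29.3%) and 10.3% of WT cells (7.55% to 13.5%).

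The proximal tubule cells of the libraries were not of the same makeup. At a finer clustering 1 cluster, led by the injury gene Havcr1, held 152 KO and 4 WT cells of this class, while another, led by the metabolic genes G6pc and Miox, held 32 KO and 171 WT cells. The Serpina6-led cluster held 95 KO cells, so some of these 152 lay in the Spp2-led cluster. Ratios within the Spp2-led cluster thus also compare unlike cells. Summed proximal markers stood at 10492 CPM in KO and 16408 in WT. Without the Havcr1-led cluster the immediate-early median was 0.48, Klf6 had a ratio of 2.42, Klf2 3.23, Cebpb 1.97 and Atf3 1.89. Fos then had 584 CPM in KO and 419.6 in WT, a ratio of 1.39, and the KO cells of the Havcr1-led cluster had 275. Fosb reversed, with a ratio of 1.27 without that cluster against 0.937 with it.

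In the loop of Henle, the segment named in the study's title as the site of cysts, the members were spread in both directions. Of 29 immediate-early genes 16 were higher in KO, with a median log2 ratio of 0.05 against -0.06 for all genes, and 0.36 with equal weight per cell. Past 1.5-fold were 7 upward and 3 downward, beside 10.1% and 14.4% of all genes. Atf3 had 259 CPM in KO and 123 in WT (ratio 2.11, 1.97 to 2.27), and was seen in 42.4% of thinned KO cells and 13.7% of WT cells. Cebpb had 55.97 in KO and 18.7 in WT (ratio 2.99, 2.52 to 3.58). Gadd45b had 89.03 in KO and 39.3 in WT (ratio 2.26, 2.0 to 2.56). All 3 were also past 1.5-fold in the proximal tubule. Dusp6 (1.91, 1.701 to 2.15), Ier5 (1.88, 1.49 to 2.38), Klf6 (1.64, 1.57 to 1.71) and Btg2 (1.52, 1.45 to 1.59) made up the rest of the 7. Ier3 was lower in KO, 83.6 against 216 in WT (ratio 0.387, 0.358 to 0.419), as were Klf4 (0.589, 0.519 to 0.668) and Nr4a2 (0.509, 0.374 to 0.689). In these cells podocyte markers summed to 1118 CPM in KO and 373 in WT, ureteric markers to 451 in KO and 869.8 in WT, and early nephron markers to 473 in KO and 869.9 in WT; their part in these ratios was not tested.

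The distal tubule, with 64 KO and 102 WT cells, gave 5 members 1.5-fold higher and 4 lower, beside 10.4% and 8.47% of all genes, and a median of -0.03 against 0.03. Gadd45b had 101 in KO and 22.2 in WT (ratio 4.55, 3.56 to 5.85), the largest ratio of any immediate-early gene. Socs3 had 44.1 in KO and 16.1 in WT (ratio 2.74, 2.004 to 3.77), and Atf3 228 in KO and 121 in WT (ratio 1.89, 1.67 to 2.13). Ier3 was again low in KO, 74.6 against 279 in WT (ratio 0.267, 0.229 to 0.311), and Nr4a1, Nr4a2 and Klf4 had ratios of 0.6197, 0.513 and 0.643. With equal weight per cell Nr4a1 reversed to 1.09 and the median moved to 0.22. Distal markers summed to 3080.1 CPM in KO and 8746 in WT, immune markers to 271 in KO and 42.1 in WT, and median depth was 38648 UMIs in KO cells and 16407 in WT cells; their part in these ratios was not tested.

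In the ureteric bud and collecting duct 17 of 29 immediate-early genes were higher in KO, with a median log2 ratio of 0.02 against 0.03. Past 1.5-fold were 2 upward and 1 downward, beside 3.61% and 3.22% of all genes. Klf2 had 37.7 in KO and 20.6 in WT (ratio 1.83, 1.46 to 2.28), Socs3 39.2 in KO and 23.7 in WT (ratio 1.65, 1.34 to 2.04), and Fosl1 10 UMIs in KO and 47 in WT. The Socs3 ratio was 1.42 (1.04 to 1.94) without the 5 highest cells, which held 57.0% of its KO UMIs, and reversed to 0.968 with equal weight per cell. Atf3 had 292 in KO and 254 in WT (ratio 1.15, 1.07 to 1.23).

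Seen gene by gene, the direction of Atf3 differed between classes. Its ratio was above 1 beyond counting error in 7 classes and below 1 in 4. Its highest level was in immune cells, 529 in KO and 689 in WT, where the KO level was the lower. Stroma had 163 in KO and 115 in WT (ratio 1.42, 1.35 to 1.499), mural cells 260.0 in KO and 192 in WT, and endothelium 267 in KO and 233 in WT. Klf6 was the most one-sided of the immediate-early genes, above 1 in 10 of 11 classes and below it in 0. The RNA-binding Zfp36 was above 1 in 9 classes and below in 1, and Dusp6 above in 8 and below in 0. Cebpb was above in 7 and below in 0. Nr4a1 and Nr4a2 leaned the other way, each below 1 in 5 classes. These counts go by counting intervals, which are narrow for abundant genes, and the same share over all genes was not computed. Fos, Fosb, Jun, Junb, Jund, Egr1, Ier2, Zfp36, Zfp36l1, Dusp1 and Btg1 stayed within 1.5-fold in all 11 classes.

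**Figure D4:**
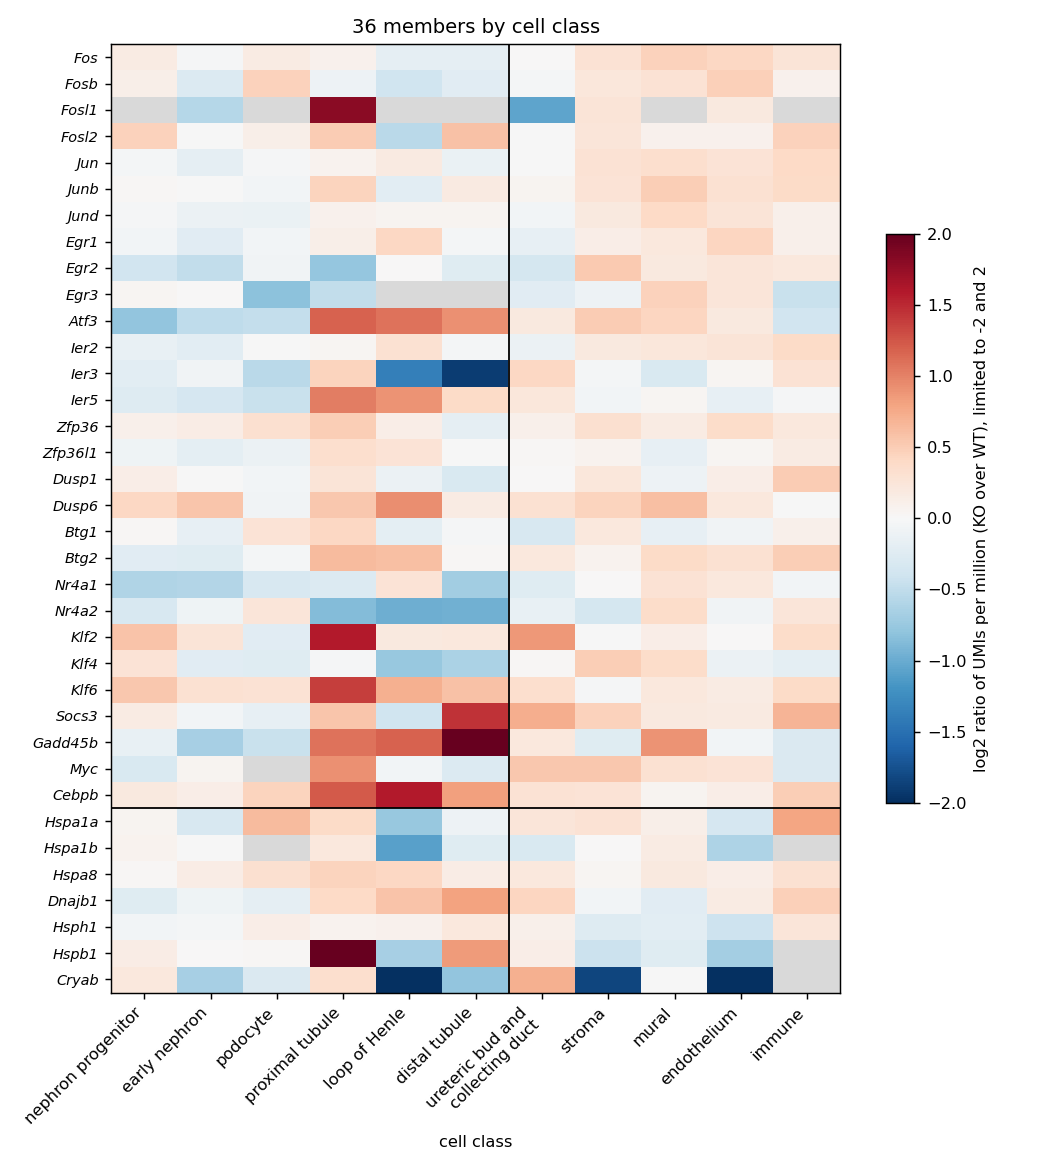
Log2 ratio of CPM, KO over WT, of the 36 genes (rows; heat shock genes below the horizontal line) in 11 cell classes (columns; Six2-derived classes left of the vertical line), with colour limited to -2 and 2 and grey for pairs with fewer than 50 UMIs. The red block of Atf3, Ier5, Klf6, Gadd45b and Cebpb spans the proximal tubule and loop of Henle, and Ier3 is blue in the loop of Henle and distal tubule, with ratios of 0.387 and 0.267.

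The heat shock genes did not share 1 direction across classes. Their median log2 ratio was 0.06 in progenitors, -0.04 in early nephron cells, 0.02 in podocytes, 0.38 in the proximal tubule, -0.67 in the loop of Henle, 0.14 in the distal tubule and 0.22 in the ureteric bud and collecting duct. Outside the epithelia it was -0.05 in stroma, -0.00 in mural cells, -0.42 in endothelium and 0.39 in immune cells. The medians over all genes lay between -0.06 and 0.04 in these classes. All 7 heat shock genes were higher in KO in the proximal tubule, 5 of them with an interval above 1. In the loop of Henle 3 of 7 were higher, and in endothelium and early nephron cells 2 of 7. With 7 members the medians rest on single genes, so each gene is given below.

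Hspa8, the constitutive HSP70 of every cell, was higher in KO in 10 of 11 classes, always by less than 1.5-fold. The proximal tubule had 1643 CPM in KO and 1213 in WT (ratio 1.35, 1.33 to 1.38), and the loop of Henle 1333 in KO and 1004 in WT (ratio 1.33, 1.29 to 1.36). Early nephron cells had 1418 in KO and 1282 in WT, podocytes 958 in KO and 768 in WT, and distal cells 1194 in KO and 1082 in WT. Progenitors, at 1337 in KO and 1309.5 in WT, gave the 1 interval that held 1. The ureteric bud and collecting duct had 1082 in KO and 932 in WT, stroma 897 in KO and 871 in WT, and mural cells 1005 in KO and 879.7 in WT. Endothelium had 1165 in KO and 1066 in WT, and immune cells 1095 in KO and 891 in WT.

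Hspb1, the small heat shock protein HSP27 that binds actin and unfolded protein, had the largest ratio of all 36 genes. In the proximal tubule it had 201 CPM in KO, from 3932 UMIs, and 15.4 in WT, from 326 UMIs, a ratio of 13.04 (11.6 to 14.6). After thinning, 27.0% of KO cells (22.6% to 31.9%) and 2.80% of WT cells (1.45% to 4.84%) held an Hspb1 UMI; unthinned, 62.6% of KO cells and 20.2% of WT cells did. In immune cells, taken as the background of free RNA, the thinned shares were 0.538% in KO and 0% of 81 cells in WT, with an exact upper bound of 4.45%. Median depth before thinning was 49932 UMIs in KO and 43164 in WT proximal cells, and 8994 in KO and 9487 in WT immune cells. The WT value rested on few cells, with 54.0% of its UMIs in 5 of 431 cells, and without the 5 highest cells of each library the ratio was 23.7. The KO cells of the Havcr1-led cluster had 381 CPM, the other KO proximal cells 59.4 and the other WT proximal cells 12.7. The Hspb1 ratio in proximal tubule cells was 4.68 without that cluster and lay between 13.2 and 23.7 under the other settings.

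Hspb1 was lower in KO in 4 classes. Endothelium had 80.3 in KO and 129 in WT (ratio 0.623, 0.578 to 0.672, and 0.704 without the 5 highest cells), stroma 71.8 in KO and 96.2 in WT (ratio 0.746, 0.7002 to 0.796), and mural cells 171 in KO and 202 in WT (ratio 0.844, 0.746 to 0.954). The loop of Henle had 17.9 in KO and 28.5 in WT (ratio 0.628, 0.5197 to 0.759). The distal tubule gave 73 UMIs in KO and 59 in WT, a ratio of 1.81 that went to 1.005 without the 5 highest cells. Progenitors, early nephron cells, podocytes and the ureteric bud and collecting duct had intervals that held 1.

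Promoter windows of the heat shock genes are shown for Hspb1, which had the largest ratio, and for Hspa1a and Hspa1b, whose windows differ at few bases. All 3 lie in RefSeq's GRCm38.p6 at chr5:135887669-135887968 (+ strand), chr17:34972107-34972406 (- strand) and chr17:34959189-34959488 (- strand). Capitals mark GAANNTTC, the core of a heat shock element, which reads the same on both strands.
Hspb1: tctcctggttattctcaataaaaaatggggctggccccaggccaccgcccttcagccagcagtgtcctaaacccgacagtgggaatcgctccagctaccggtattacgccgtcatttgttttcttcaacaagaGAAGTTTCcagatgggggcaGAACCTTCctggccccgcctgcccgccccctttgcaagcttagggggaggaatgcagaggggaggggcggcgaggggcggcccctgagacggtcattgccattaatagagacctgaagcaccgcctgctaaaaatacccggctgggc
Hspa1a: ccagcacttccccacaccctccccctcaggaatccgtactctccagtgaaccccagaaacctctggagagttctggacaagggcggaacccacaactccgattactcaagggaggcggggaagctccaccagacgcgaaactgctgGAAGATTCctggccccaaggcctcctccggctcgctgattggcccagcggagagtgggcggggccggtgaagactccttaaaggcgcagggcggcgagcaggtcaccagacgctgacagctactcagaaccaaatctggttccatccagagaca
Hspa1b: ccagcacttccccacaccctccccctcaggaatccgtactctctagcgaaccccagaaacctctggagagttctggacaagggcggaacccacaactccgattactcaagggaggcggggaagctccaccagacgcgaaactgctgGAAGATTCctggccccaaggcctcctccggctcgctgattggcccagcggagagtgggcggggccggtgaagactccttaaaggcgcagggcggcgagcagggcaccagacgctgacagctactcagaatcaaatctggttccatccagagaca
The matches begin 117 and 97 bases before the start of Hspb1 and 104 before that of Hspa1a and Hspa1b. GAANNTTC was in the window of 4 of the 5 heat shock genes in the table, in 2 of 24 immediate-early genes and in 9.04% of all genes. The Hspa1a and Hspa1b windows match at 296 of 300 bases.

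Hspa1a and Hspa1b encode the stress-induced HSP70 and are neighbours, 9951 bases apart. Their coding sequences are 99.4% identical and the sequence after the coding part 46.9%. Reads in the coding part may not be assignable to either gene, while reads after it can be told apart. Where the reads of these genes fell was not tested, so each count is uncertain. In the loop of Henle Hspa1a had 25.3 CPM in KO and 42.9 in WT (ratio 0.589, 0.503 to 0.688), and Hspa1b 19.5 in KO and 41.6 in WT (ratio 0.469, 0.395 to 0.555). Without the 5 highest cells those ratios were 0.717 and 0.629. Both were lower in KO in endothelium: Hspa1a had 17.1 in KO and 21.5 in WT, and Hspa1b 4.65 in KO and 7.14 in WT. Without the 5 highest cells the endothelial ratios were 0.935 for Hspa1a and 0.727 for Hspa1b, and both intervals held 1.

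Hspa1a was most abundant in mural cells, 107 in KO and 98.8 in WT, and Hspa1b in the ureteric bud and collecting duct, 53.8 in KO and 66.7 in WT. Stroma had 40.9 Hspa1a CPM in KO and 33.3 in WT (ratio 1.23, 1.11 to 1.36), and Hspa1b at 10.5 in KO and 10.4 in WT. Immune cells had 122 Hspa1a UMIs in KO and 30 in WT (ratio 1.76, 1.17 to 2.71), of which 5 cells held 47.5% in KO and 70.0% in WT. In the remaining classes Hspa1a stood at 13.6 in KO and 13.1 in WT progenitors, 4.65 in KO and 5.82 in WT early nephron cells, and 12.3 in KO and 7.96 in WT podocytes. It stood at 11.04 in KO and 8.51 in WT proximal cells, 38.2 in KO and 41.1 in WT distal cells, and 57.6 in KO and 48.9 in WT ureteric bud and collecting duct. Of these classes the proximal tubule had an interval of the ratio that lay wholly above 1. For Hspa1b the remaining values were 5.83 in KO and 5.54 in WT progenitors, 3.76 in KO and 3.797 in WT early nephron cells, 17.9 in KO and 15.5 in WT proximal cells, 26.5 in KO and 31.5 in WT distal cells, and 19.6 in KO and 17.5 in WT mural cells. Podocytes and immune cells had fewer than 50 Hspa1b UMIs.

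Cryab, αB-crystallin, a small heat shock protein that holds unfolded protein, was most abundant in the proximal tubule, 389.5 CPM in KO and 308 in WT (ratio 1.26, 1.22 to 1.31). There 5 WT cells held 52.5% of its UMIs, and without the 5 highest cells of each library the ratio was 2.0. Its pooled ratio averages over unlike cells. In the Serpina6-led cluster Cryab had 454 CPM in KO and 671 in WT (ratio 0.677, 0.646 to 0.710), and in the Spp2-led cluster 366 in KO and 19.9 in WT (ratio 18.4, 16.2 to 21.1). The cells of the Havcr1-led cluster, nearly all from KO, were kept in these values, and the Spp2-led ratio without them is not given here. The Serpina6-led cluster held 6281 WT Cryab UMIs and the Spp2-led one 234. The highest WT proximal cell held 1905, so it lay in the Serpina6-led cluster. The ratio of that cluster without its highest cells was not computed, and its direction may rest on few WT cells. By class, Cryab was at least 1.5-fold lower in KO in 5 classes and higher in 1. The distal tubule, 1 of the 5, had 18 UMIs in KO and 46 in WT with an interval that held 1, and its ratio reversed to 1.24 (0.425 to 3.49) without the 5 highest cells. The 1 higher class, the ureteric bud and collecting duct, had a ratio of 1.47 without them, below 1.5-fold. Endothelium had 13 UMIs in KO and 272 in WT (ratio 0.02996, 0.0158 to 0.0521), with 84.2% of the WT UMIs in 5 of 299 cells, and a ratio of 0.101 without the highest 5. The loop of Henle had 9.98 in KO and 69.9 in WT (ratio 0.143, 0.116 to 0.175, and 0.176 without the highest 5). Stroma had 10.4 in KO and 37.2 in WT (ratio 0.281, 0.245 to 0.321, and 0.407 without the highest 5). The direction stayed the same in endothelium, the loop of Henle and stroma. The size depended on the highest cells most in endothelium and least in the loop of Henle. After thinning, 0.218% of KO and 2.36% of WT endothelial cells held a Cryab UMI, against 0.538% of KO and 2.47% of WT immune cells, and the WT immune share is 2 of 81 cells. The highest WT endothelial cell held 119 Cryab UMIs and the highest WT immune cell 1. Summed proximal markers in endothelium were 23.3 CPM in KO and 37.9 in WT.

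**Figure D5:**
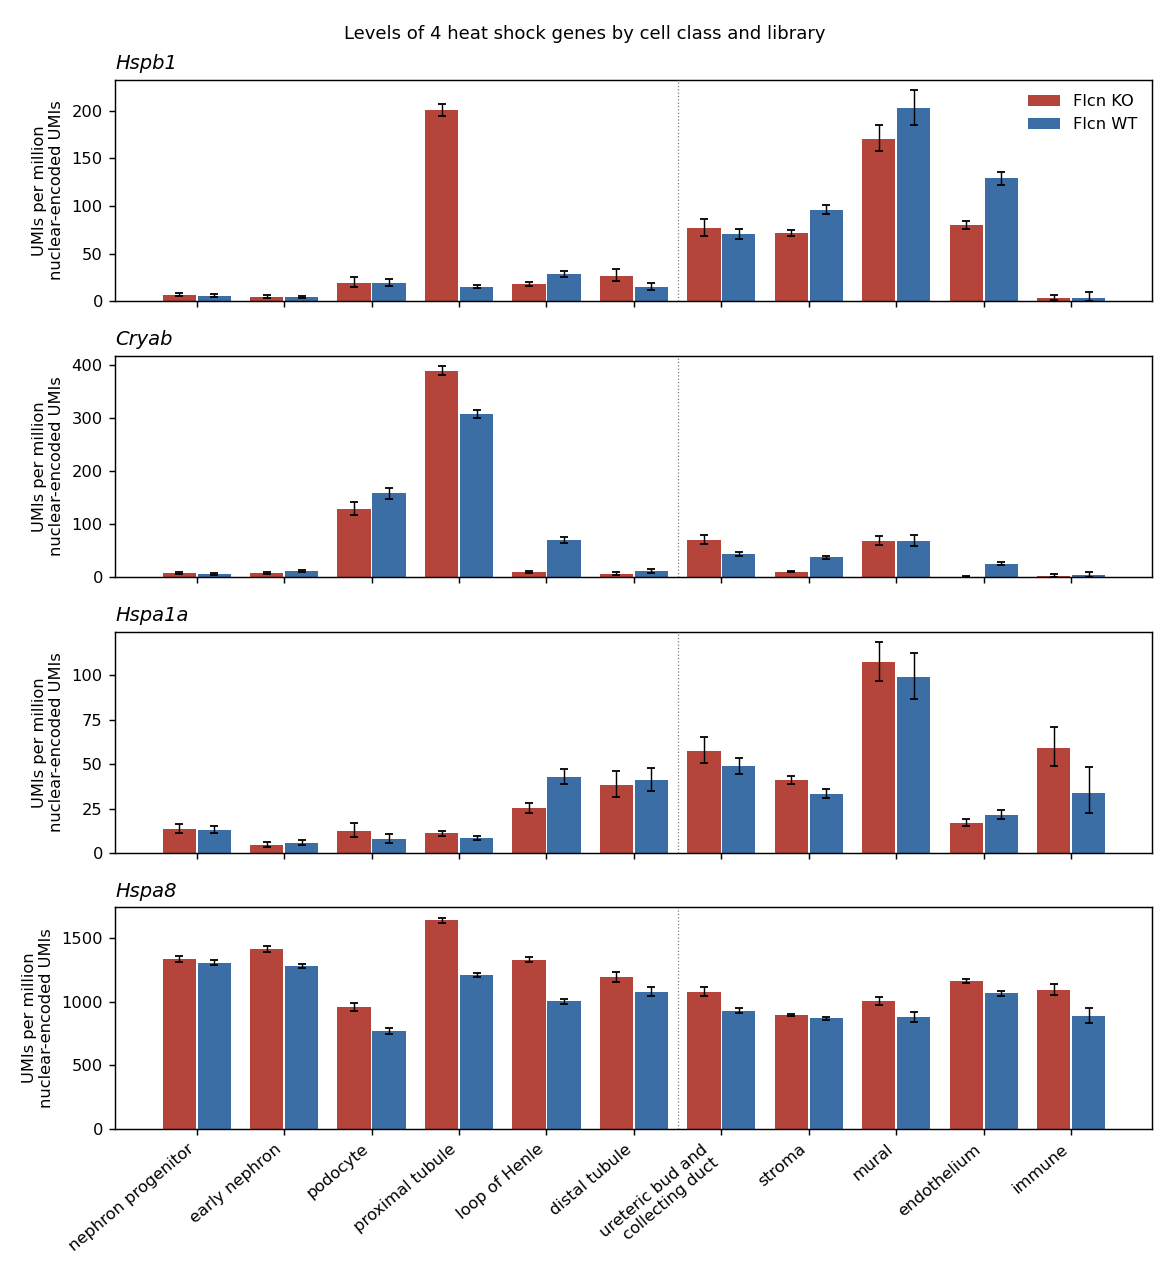
CPM of nuclear-encoded UMIs (y axis) of Hspb1, Cryab, Hspa1a and Hspa8 in 11 cell classes, with KO bars left of WT bars and error bars giving 95% counting intervals. Hspb1 stood at 201 in KO and 15.4 in WT proximal tubule, and Cryab at 9.98 in KO and 69.9 in WT loop of Henle, while Hspa8 differed by less than 1.5-fold in every class.

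The co-chaperones varied less. Dnajb1, the HSP40 that loads substrate onto HSP70, had 75.4 in KO and 43.1 in WT distal cells (ratio 1.75, 1.42 to 2.16), 57.6 in KO and 38.7 in WT loop cells (ratio 1.49, 1.31 to 1.704), and 49.7 in KO and 59.02 in WT progenitors (ratio 0.842, 0.753 to 0.94). Hsph1, an HSP70 nucleotide exchange factor, was lower in KO in endothelium (44.04 in KO, 58.8 in WT, ratio 0.749, 0.674 to 0.833) and stroma (54.1 in KO, 64.97 in WT, ratio 0.833, 0.772 to 0.899), and its intervals held 1 in the other 9 classes. The counts of heat shock genes past 1.5-fold are small. Progenitors (4.27% of all genes higher, 4.28% lower) and mural cells (5.69% and 5.06%) had 0. Early nephron cells (3.76% and 4.77%) and stroma (4.86% and 3.46%) had 1 lower, Cryab in both. Podocytes (8.78% and 6.19%) had 1 higher, Hspa1a, whose ratio was 1.14 without the 5 highest cells. The proximal tubule (9.14% and 11.7%) had 1 higher, Hspb1, and immune cells (7.40% and 7.47%) 1 higher, Hspa1a. The ureteric bud and collecting duct (3.61% and 3.22%) had 1 higher, Cryab. The loop of Henle (10.1% and 14.4%) had 4 lower, of which Hspa1a and Hspb1, at 0.717 and 0.6695, no longer passed 1.5-fold without the 5 highest cells. The distal tubule (10.4% and 8.47%) had Dnajb1 and Hspb1 higher and Cryab lower, and of these Dnajb1 still passed without the 5 highest cells, with a ratio of 1.59. Endothelium (3.63% and 2.82%) had 3 lower, Hspb1, Hspa1b and Cryab. Without the 5 highest cells Hspb1 and Hspa1b, at 0.704 and 0.727, no longer passed 1.5-fold. Cryab still passed, at 0.101 from 7 UMIs in KO and 43 in WT.

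Related genes outside the 36 were read the same way. Of 39 further immediate-early genes, 30 of the 38 with at least 10 UMIs were higher in KO in the proximal tubule, 14 past 1.5-fold upward and 2 downward, beside 9.14% and 11.7% of all genes. Maff, a small MAF factor, had 68.6 CPM in KO and 27.4 in WT. In the loop of Henle 8 were past 1.5-fold upward and 4 downward, beside 10.1% and 14.4%. Sgk1, the kinase that raises sodium transport, had 47.9 in KO and 12.6 in WT but 41.1 in KO and 68.6 in WT proximal cells. In stroma 30 of 38 were higher in KO, 5 past 1.5-fold upward and 0 downward beside 4.86% and 3.46%, among them Klf9 (317 in KO, 162 in WT). In endothelium 32 of 38 were higher, 1 past 1.5-fold upward and 0 downward, beside 3.63% and 2.82%. Median log2 ratios were 0.38 in the proximal tubule, 0.16 in stroma and 0.20 in endothelium, against -0.04, 0.00 and -0.01 for all genes.

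Of 21 further chaperone genes, 10 were higher in KO in the proximal tubule and 1 was past 1.5-fold upward, beside 9.14% of all genes. Their median log2 ratio there was -0.02, against -0.04 for all genes. Hsp90aa1, the inducible HSP90, had 706 in KO and 521 in WT proximal cells and 807 in KO and 554 in WT loop cells, while the mitochondrial chaperonin Hspd1 had 561 in KO and 682 in WT proximal cells. In endothelium 4 of 20 were higher in KO, with a median log2 ratio of -0.07 against -0.01 for all genes. Of 18 upstream regulators, the 1 past 1.5-fold upward in the proximal tubule, beside 9.14% of all genes, was Mapk3, the ERK1 kinase (63.2 in KO, 36.1 in WT). Hsf1, the heat shock factor, was the 1 regulator of 17 past 1.5-fold downward in mural cells, beside 5.06% of all genes. It had 57 UMIs in KO and 63 in WT (16.4 CPM in KO, 26.8 in WT, ratio 0.612, 0.4203 to 0.8905). In endothelium it was also lower in KO (19.6 in KO, 23.7 in WT, ratio 0.828, 0.702 to 0.977).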

How the data were processed

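Single cells of newborn kidney were captured on the 10x Chromium platform with 3′ v2 chemistry, per the labels' protocols. The deposited files hold raw UMI counts per gene and barcode, made with Cell Ranger 7.1.0 for KO and 7.0.0 for WT per the file headers, a difference that cannot be told apart from genotype; STAR 2.7.2a, bcl2fastq 2.20.0 and the GRCm38 build are named in the submitters' processing notes. Whether intron reads were counted is not given in the sources used here. Barcodes with at least 1000 UMIs, 500 genes and at most 20% mitochondrial UMIs were kept; mitochondrial shares over 20% removed 11.6% of KO and 17.7% of WT barcodes. Scrublet marked 2 KO and 1 WT cells, so the highest scores were removed at an expected 0.8% per 1000 cells (203 KO, 140 WT). Cells were clustered with scanpy 1.11.5 (Leiden, resolution 1) without the members and related lists.

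Counts were summed per class and library and scaled to CPM of nuclear-encoded UMIs. With 1 library per genotype no test across samples was made. Ratios have exact conditional 95% intervals and shares exact Clopper-Pearson intervals; both cover counting error only. Log2 ratios use a prior of 0.5 UMIs. The interval code was tested on simulated data. Alternatives were edgeR 4.0.16 and DESeq2 1.42.0 scaling factors, other filters, clusterings and thinning depths. The members and lists were chosen with earlier results of these data known. Fos, Jun, Egr1, Atf3, Hspa1a, Hspa1b and Hspa8 are given in every class; others were named mainly by rank, the 4 highest and 4 lowest per class by the interval bound nearest to 1 among genes with at least 50 UMIs and 20 CPM. Scarce genes, clusters and gene by gene counts outside that rule were named after their values were seen.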

Additional observations from a re-analysis of the deposited data

Results flagged for a closer look

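The median log2 ratio of the immediate-early genes, KO over WT, lay on opposite sides of 0 in different cell classes, with 95% intervals over the members (order statistics) that did not hold 0. It was positive in the proximal tubule (0.45), stroma (0.23), mural cells (0.25, and 0.12 with doublet calls kept) and endothelium (0.19), and negative in early nephron cells (-0.11) and podocytes (-0.060). The early nephron median changed sign at Leiden resolution 0.5. In podocytes the interval ended at -0.0022, and the summed level had a ratio of 1.003. With 1 library per genotype the difference between classes was not tested, and the genes of 1 list are not independent of each other.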

How the results depend on the processing

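Of the recomputed immediate-early medians 113 stayed within the interval of the reported value, 4 moved beyond it and 1 reversed. A reversal was counted only where that interval did not hold 0. Other changes of sign are therefore not counted as reversals, as in the distal tubule, from -0.03 to 0.22 with equal weight per cell. Of the heat shock medians 116 stayed and 2 moved. With at most 7 members their interval runs from the lowest to the highest member, so a median that stayed within it says little. The early nephron immediate-early median reversed to 0.11 at Leiden resolution 0.5. When every cell had equal weight, the immediate-early median moved to -0.18 in podocytes, 0.36 in the loop of Henle and 0.22 in the distal tubule, and the heat shock median in mural cells to -0.31. With doublet calls kept, mural cells had an immediate-early median of 0.12 and a heat shock median of -0.44. The number of pairs of an immediate-early gene and a class at least 1.5-fold lower in KO was 15, and 7 at Leiden resolution 0.5. Those 1.5-fold higher numbered 26, and 23 to 33 under the alternatives. Each class had 27 to 29 members with at least 50 UMIs. Of all genes 2.82% to 14.4% were 1.5-fold lower by class and 3.61% to 10.4% higher, and a share over all classes together was not computed. With equal weight per cell Nr4a1 in the distal tubule reversed to a ratio of 1.09 and Socs3 in the ureteric bud and collecting duct to 0.968. The cause of these moves was not tested. Among other single values 290 moved beyond their counting interval and 971 did not, where such intervals are narrow for abundant genes. The values without the Havcr1-led cluster and without the 5 highest cells were added after seeing the data. No paired analysis was possible because each genotype has 1 library. Depth limits Fosl1, Egr2, Egr3, Hspa1b and the classes with few cells.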

Other observations

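Barcodes removed for over 20% mitochondrial UMIs had lower levels of both gene sets than kept cells. The 493 such KO barcodes had 6084 immediate-early CPM, against 10913 in kept KO cells, and the 715 such WT barcodes had 3805, against 8832 in kept WT cells. For the heat shock genes the values were 731 in removed and 1545 in kept KO barcodes, and 726 in removed and 1395 in kept WT barcodes. In the 14 KO and 43 WT intercalated cells, which were not compared, 23 of 29 immediate-early genes had a higher level in KO. Their median log2 ratio was 0.26, against 0.05 for all genes.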
